A study of Mus musculus with 6 samples.

Results

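The colony-stimulating factors (CSFs) and their receptors were examined in oxLDL-exposed mouse peritoneal macrophages, the phagocytes of the abdominal cavity. The group was chosen by gene name and holds 9 genes of the 27240 in the deposited table. It consists of 4 ligand genes (Csf1, Csf2, Csf3 and Il34) and 5 receptor chain genes (Csf1r, Csf2ra, Csf2rb, Csf2rb2 and Csf3r). The wild-type group was 3 poly(A) RNA libraries labelled WT and the knockout group 3 libraries labelled KO, and all 6 were labelled as treated with oxLDL (oxidised low-density lipoprotein). The labels do not name the deleted gene, while the series title names the kinase DCLK1 and the kinase IKKβ. No mouse strain, age, deleted exon, deleted cell type or oxLDL dose is given in the sources used here. Whether the replicates were separate animals or cultures is not stated. The p-values therefore weigh differences between genotypes only against the spread of these samples, and that spread may be technical. Cells without oxLDL were not analysed here.

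Csf1 encodes macrophage colony-stimulating factor (M-CSF), which sustains the survival of macrophages through the receptor tyrosine kinase CSF1R, and IL-34 is the other ligand of that receptor. Csf2 encodes granulocyte-macrophage colony-stimulating factor (GM-CSF), which binds an alpha chain (Csf2ra) and signals through a common beta chain (Csf2rb) and the kinase JAK2 to STAT5. Mice carry an additional beta chain gene, Csf2rb2, whose product serves the IL-3 receptor. Csf3 encodes granulocyte colony-stimulating factor (G-CSF), whose receptor gene Csf3r is best known in neutrophils.

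Total counts lay between 68053008 and 79090732 per library. Levels are given as CPM, counts scaled for library size by the trimmed mean of M values. A count of 0 allows up to 3 counts, or 0.0382 to 0.0441 CPM, by counting error alone. Dclk1, the gene of the series title, was at 7.27, 6.70 and 7.43 CPM in the 3 wild-type libraries against 5.55, 5.89 and 5.15 CPM in the 3 knockout libraries. Its knockout values all lay below its wild-type values, and the fold of 0.776 did not pass (edgeR adjusted p = 0.332). All 10 listed macrophage markers were tested, and their levels differed widely. Cd68 was at 1936 CPM or more and Adgre1 at 1005 CPM or more in every library, whereas Gata6, Timd4 and Icam2, markers of resident peritoneal macrophages, lay between 0.615 and 2.82 CPM. The 10 markers summed to 19725 to 20956 CPM in the wild-type libraries against 11967 to 12200 CPM in the knockout libraries. This gap lay in Lyz2, at 16349 ± 652 and 7970 ± 42.0 CPM (SD, n = 3, wild type first). Cd68 (1994 and 1993 CPM) and Adgre1 (1057 and 1016 CPM) were close between genotypes. Itgam was higher in the knockout libraries (327 and 513 CPM, edgeR adjusted p = 0.344). Of the 10 markers, 7 had a fitted value below 0 and 3 above, with a median log2 fold change of -0.045.

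Of the 16239 genes tested across the table, 11 (0.0677%) passed an edgeR adjusted p under 0.05, and none of the 8 CSF genes tested was among them. Csf3 was tested only because its counts were high in one genotype, so it is left out of the counts of CSF genes that follow. Of the 7 others, 1 (Csf1r) had an unadjusted p under 0.05, a level that 10.4% of all tested genes reached. DESeq2, which called 457 of 12135 genes (3.77%), called none of the 6 CSF genes to which it gave an adjusted p. Per length, the receptor chains were far more abundant than the ligands in both genotypes. Among the CSF genes above 10 CPM, Csf2rb had the largest spread between libraries of a genotype (SD 0.25 on the log2 scale), being high in the library numbered 3 of each.

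Among the ligands, Csf1 was the one expressed above 1 CPM. Csf1 (ENSMUSG00000014599, chromosome 3, 107741048 to 107760469, minus strand, taken as GRCm38) was at 21.3, 19.5 and 24.4 CPM in the 3 wild-type libraries against 19.0, 19.0 and 19.1 CPM in the 3 knockout libraries. Every knockout value lay under every wild-type value, and the knockout libraries were nearly level with each other, while wild-type replicate 3 was the highest. The knockout level was 0.876 times the wild-type level (log2 fold change -0.19, SE 0.0924, 95% interval -0.41 to 0.025), which did not pass (edgeR adjusted p = 0.537). Without wild-type replicate 3 the log2 fold change was -0.10 (edgeR adjusted p = 0.761). By exact permutation of the libraries (two-sided) p was 0.1, the smallest that 3 against 3 can give. In bulk RNA, fewer cells of a type and less RNA per cell cannot be told apart.

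The series title names IKKβ, a kinase upstream of NF-κB, so the Csf1 promoter was searched for a 10-letter NF-κB consensus on both strands. The 250 bases before the RefSeq start of Csf1 (chr3:107760470-107760719, GRCm38.p6, minus strand) hold 1 match, from base -154 to base -145 relative to the start. The match lies on the opposite strand, so the capitals below are its reverse complement, read 5′ to 3′ in the direction of the gene. It is shown because it is the letters of the pathway in the title beside the one ligand that was well measured.
Csf1 promoter: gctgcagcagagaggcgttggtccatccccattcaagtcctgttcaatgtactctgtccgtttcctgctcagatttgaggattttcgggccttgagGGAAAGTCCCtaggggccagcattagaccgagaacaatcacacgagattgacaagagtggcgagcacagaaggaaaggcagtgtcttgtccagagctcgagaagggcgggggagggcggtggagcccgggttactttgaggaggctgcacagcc
This fixed form occurs in the same window of 46 of 32851 promoters in the RefSeq table (0.140%). RefSeq promoter entries were matched for 5 of the 9 CSF genes (Csf1, Csf2, Csf2ra, Csf2rb2 and Csf3r), and Csf1 alone of the 5 held this match. Other forms of the NF-κB site were not searched, so a promoter without this match may still hold one. A match is a description of the sequence and shows no binding.

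Csf3 (ENSMUSG00000038067, chromosome 11, 98701263 to 98703629, plus strand) was close to the detection limit, with 15, 14 and 16 counts in the 3 wild-type libraries against 4, 4 and 0 counts in the 3 knockout libraries. All knockout counts lay below all wild-type counts. Summed over libraries, 45 against 8 counts gave a wild-type to knockout ratio of 5.63 after scaling. The edgeR log2 fold change was -2.44 (SE 0.980) and did not pass (edgeR adjusted p = 0.440, 0.443 to 0.710 over the alternatives). Csf3 passed the filter on low counts through its wild-type libraries alone, so neither this ratio nor the fold change is support for a difference. Wild-type levels were 0.221, 0.188 and 0.203 CPM and knockout levels 0.0535, 0.0547 and 0 CPM, the last at or under the limit of detection.

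Il34 (ENSMUSG00000031750, chromosome 8, 110741829 to 110805903, minus strand) had 8, 15 and 8 counts in the 3 wild-type libraries against 0, 19 and 22 counts in the 3 knockout libraries. The groups overlapped, with both the lowest and the highest library among the knockouts. The log2 fold change was 0.41 with an interval of -2.28 to 3.09 (edgeR adjusted p = 0.939), and without knockout replicate 3 its sign turned (-0.11). Its exons overlap antisense genes by at most 75 bases, and whether the counting used strand is not stated. Csf2 (ENSMUSG00000018916, chromosome 11, 54247271 to 54249667) had 0 counts in all 6 libraries. GM-CSF transcript was therefore not detectable at this depth, and up to 0.0441 CPM could be missed in the shallowest library. Csf2 was not tested.

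**Figure D1:**
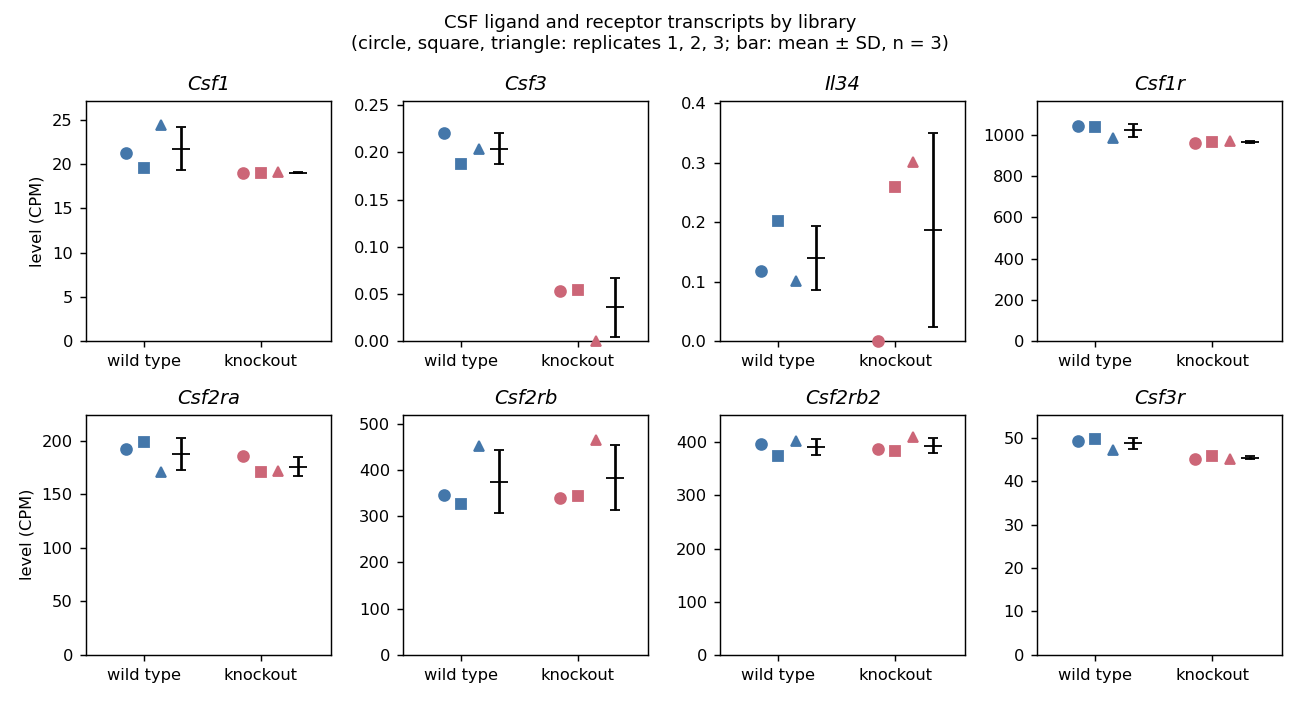
Levels of the 8 detected CSF genes in CPM (vertical axes, each starting at 0) for the 3 wild-type (blue) and 3 knockout (red) libraries, with the mean ± SD beside the points. The knockout points lie below the wild-type points for Csf1, Csf3, Csf1r and Csf3r, and the libraries numbered 3 stand above the rest for Csf2rb in both genotypes.

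Csf1r (ENSMUSG00000024621, chromosome 18, 61100598 to 61131134, plus strand) was the most abundant receptor gene. Its level was 1041, 1039.8 and 983 CPM in the 3 wild-type libraries against 959.8, 966 and 968 CPM in the 3 knockout libraries. The groups did not overlap, and the gap between the lowest wild-type and the highest knockout library was small beside the level. The knockout level was 0.945 times the wild-type level (log2 fold change -0.082, SE 0.0298, 95% interval of the fold 0.900 to 0.992), which did not pass over all genes (edgeR adjusted p = 0.394, 0.288 to 0.614 over the alternatives). Since 8.89% of all tested genes had every knockout value below every wild-type value, and 8.68% the reverse, lack of overlap was common in these libraries. Of the 7 CSF genes tested other than Csf3, 3 (Csf1, Csf1r and Csf3r) had every knockout value below every wild-type value and none the reverse. A fitted value below 0 was found in 4 of the 7 and in 50.5% of all tested genes.

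The genes whose profile over the 6 libraries lay nearest to that of Csf1r, among genes of at least 10 CPM, were Sec24b, Iah1 and Wtap. The root-mean-square differences of their centred log2 levels from Csf1r were 0.0103, 0.0139 and 0.0150. Sec24b, which encodes a component of the COPII vesicle coat, was at 84.2 ± 2.49 and 78.6 ± 0.639 CPM (SD, n = 3 each, edgeR adjusted p = 0.499). Iah1 was at 50.7 and 47.6 CPM and Wtap at 106 and 101 CPM by genotype, wild type first. Nearness of profile over 6 libraries is a description.

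Csf3r (ENSMUSG00000028859, chromosome 4, 126024550 to 126044440, plus strand) was at 49.2, 49.7 and 47.1 CPM in the 3 wild-type libraries against 45.2, 45.8 and 45.1 CPM in the 3 knockout libraries. The groups did not overlap and the libraries of each were close together. The knockout level was 0.932 times the wild-type level (log2 fold change -0.10, SE 0.0501, 95% interval of the fold 0.859 to 1.01, edgeR adjusted p = 0.546). Of the 3945 genes between 0.5 and 2 times the level of Csf3r, 97.0% varied more between libraries of a genotype than Csf3r did. Of its 50-base sequences in the annotated transcripts, 10.5% also occur in other genes.

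Neutrophil markers give the background for Csf3r. Of 11 listed, 10 were in the table and 4 passed the filter on low counts. Ly6g and Retnlg had 0 counts in all 6 libraries and S100a9 reached at most 0.205 CPM, while S100a8 (24.6 and 21.6 CPM) and the collagenase gene Mmp8 (31.0 and 36.2 CPM) made up most of the summed level. That sum was 53.4 to 59.0 CPM in the 3 wild-type libraries against 58.0 to 60.1 CPM in the 3 knockout libraries. The part of such cells in the level of Csf3r was not tested.

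Transcripts of the GM-CSF receptor chains were present in both genotypes although the ligand gene was at 0. Csf2ra, the alpha chain that binds GM-CSF (ENSMUSG00000059326, chromosome 19, 61223957 to 61228429, minus strand), was at 192, 199 and 171 CPM in the 3 wild-type libraries against 186, 170.4 and 172 CPM in the 3 knockout libraries. The groups overlapped, with wild-type replicate 3 among the lower libraries. The knockout level was 0.939 times the wild-type level, with an interval of the fold of 0.842 to 1.05 (edgeR adjusted p = 0.704).

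Csf2rb and Csf2rb2 lie head to head on chromosome 15, with 20030 bases between them. Csf2rb2 (ENSMUSG00000071714, 78282507 to 78305721, minus strand) was at 396, 374 and 402 CPM in the 3 wild-type libraries against 388, 383 and 409 CPM in the 3 knockout libraries. Its fold was 1.01, with a 95% interval of 0.939 to 1.08 (edgeR adjusted p = 0.963). Csf2rb (ENSMUSG00000071713, 78325752 to 78351001, plus strand) was at 345, 327 and 452 CPM in the 3 wild-type libraries against 340.1, 344 and 464 CPM in the 3 knockout libraries. The groups overlapped, and the library numbered 3 was the highest in each. The fold between genotypes was 1.02, with a wider interval of 0.793 to 1.32 (edgeR adjusted p = 0.969). Both signs turned when 1 library was left out: Csf2rb was at -0.025, -0.057 and -0.13 on the log2 scale without wild-type replicate 1, wild-type replicate 2 and knockout replicate 3, and Csf2rb2 at -0.021 and -0.019 without the last 2 of these.

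The 2 beta chain genes are near copies, so their sequences show how far reads can be told apart. The coding sequences have 2688 bases in Csf2rb and 2634 in Csf2rb2, and 95.2% of the 2628 aligned positions are identical, with 125 mismatches. In the annotated transcripts 12.3% of the 50-base sequences of Csf2rb and 18.4% of those of Csf2rb2 occur in the other gene. The stretch of 90 coding bases with the most mismatches holds 16, shown in capitals, at coding positions 308 to 397 of Csf2rb and 311 to 400 of Csf2rb2, counted from the first base of the start codon in GENCODE M21 transcripts.
Csf2rb: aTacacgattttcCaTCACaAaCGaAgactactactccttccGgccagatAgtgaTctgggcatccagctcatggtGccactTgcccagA
Csf2rb2: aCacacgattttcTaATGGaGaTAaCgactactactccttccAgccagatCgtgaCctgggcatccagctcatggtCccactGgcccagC
The longest run that both share without a mismatch has 242 bases, at positions 2083 to 2324 of each.
Shared run: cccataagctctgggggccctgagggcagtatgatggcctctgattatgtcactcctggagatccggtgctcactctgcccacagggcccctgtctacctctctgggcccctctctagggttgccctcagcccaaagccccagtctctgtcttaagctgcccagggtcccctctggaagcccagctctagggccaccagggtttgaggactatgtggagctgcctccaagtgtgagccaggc
A read pair within this run belongs equally to both genes, while a read over the first stretch does not. How the authors' counting treated such reads is not given in the sources used here, so the split between the 2 genes is uncertain. Their summed level does not depend on how shared reads were divided between the 2 genes. It would differ if such reads were left out or counted for both genes. The sum was 741, 701 and 853 CPM in the 3 wild-type libraries against 728, 727 and 873 CPM in the 3 knockout libraries. Fitted as 1 gene, the pair had a log2 fold change of 0.021 (95% interval -0.20 to 0.24, edgeR adjusted p = 0.965).

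The libraries numbered 3 differed from the other 4 in Csf2rb. Csf2rb was 1.35 times higher in them on the mean of log2 levels, Csf2rb2 1.05 times higher, and Csf2ra was at 0.917 times with overlapping values. The ratio of Csf2rb to Csf2rb2 counts was 1.12 and 1.13 in the wild-type and knockout libraries numbered 3 and 0.870 to 0.898 in the other 4. Both libraries numbered 3 stood above the other 4 in 392 of 8226 genes of at least 10 CPM (4.77%), and 24 of these genes, Csf2rb included, had a difference as large as that of Csf2rb or larger. Among 744 genes between 0.5 and 2 times the level of Csf2rb, 5.51% had a larger spread between libraries of a genotype. This comparison was chosen after the values of Csf2rb were seen. The labels give no meaning to the number beyond naming the replicate, and the deviations of same-numbered libraries across all tested genes had correlations of 0.0146 to 0.0497.

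The profiles nearest to Csf2rb by the same measure were those of Grn, Pik3cg and Ctnna1, a search also chosen after its values were seen. Grn, which encodes the lysosomal growth factor precursor progranulin, was at 975, 1005 and 1197 CPM in the 3 wild-type libraries against 993, 1006 and 1429 CPM in the 3 knockout libraries. Pik3cg, which encodes a catalytic subunit of phosphoinositide 3-kinase, was at 66.4, 65.0 and 81.9 CPM and at 63.0, 57.2 and 80.1 CPM. Both genes were highest in the library numbered 3 of each genotype. The root-mean-square differences of Grn, Pik3cg and Ctnna1 from Csf2rb were 0.0734, 0.0875 and 0.0888 on the log2 scale.

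**Figure D2:**
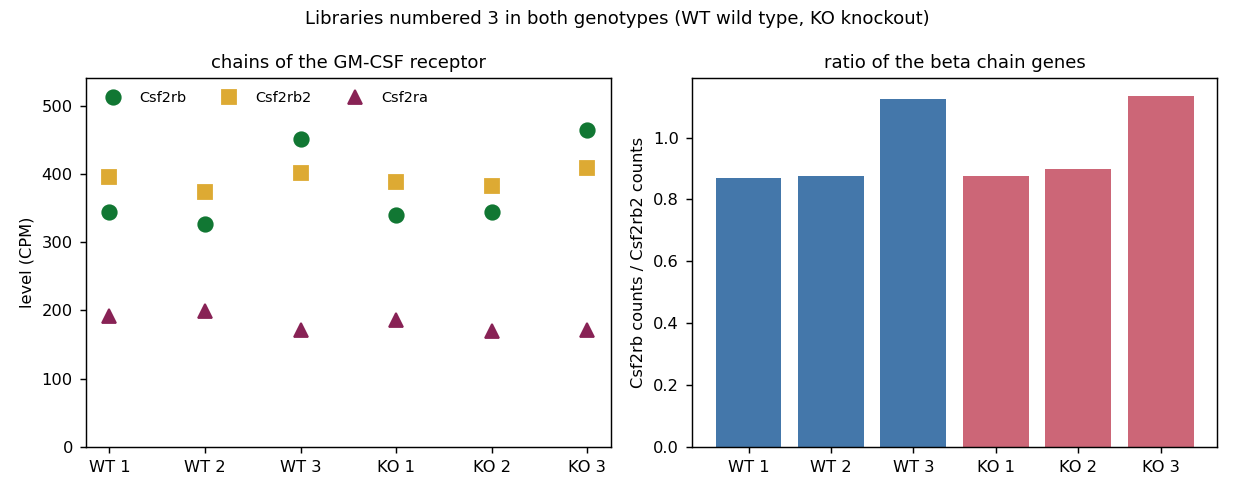
Left, levels in CPM of Csf2rb (circles), Csf2rb2 (squares) and Csf2ra (triangles) in each library. Right, the ratio of Csf2rb to Csf2rb2 counts in each library, where the libraries numbered 3 reach 1.12 and 1.13 and the other 4 lie between 0.870 and 0.898.

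Among Csf2ra, Csf2rb and Csf2rb2, promoter sequence was at hand for Csf2ra and Csf2rb2. Both are shown because PU.1, the macrophage transcription factor encoded by Spi1, is known to act on myeloid receptor genes. The core letters GAGGAA were searched on both strands in the 250 bases before the RefSeq start and are in capitals, as TTCCTC where the match is on the opposite strand. Csf2ra (chr19:61228419-61228668, GRCm38.p6, minus strand) holds 2 adjoining matches, from base -14 to base -9 and from base -8 to base -3 relative to the RefSeq start. In the deposited table Csf2ra starts at 61228429, which is within this window. The match nearer the RefSeq start thus lies inside the gene as listed there, and the other lies across its first base. Csf2rb2 (chr15:78305722-78305971, minus strand) holds 1 match, from base -167 to base -162.
Csf2ra promoter: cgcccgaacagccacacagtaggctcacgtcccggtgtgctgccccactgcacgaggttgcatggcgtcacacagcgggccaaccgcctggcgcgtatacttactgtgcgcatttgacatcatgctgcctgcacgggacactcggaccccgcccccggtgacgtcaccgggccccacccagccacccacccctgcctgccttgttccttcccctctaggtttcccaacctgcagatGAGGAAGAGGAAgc
Csf2rb2 promoter: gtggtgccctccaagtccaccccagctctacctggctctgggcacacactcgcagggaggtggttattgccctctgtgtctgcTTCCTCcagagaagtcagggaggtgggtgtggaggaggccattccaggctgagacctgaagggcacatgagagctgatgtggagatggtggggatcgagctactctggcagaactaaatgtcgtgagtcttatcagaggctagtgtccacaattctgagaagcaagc
Csf3r holds 1 match and Csf1 and Csf2 hold none, beside 23.3% of all 32851 promoters with at least 1. Csf2rb2 also holds 1 match to the STAT5 letters TTCNNNGAA, found in 7.02% of promoters, and none of the 5 promoters holds the AP-1 letters TGANTCA, found in 6.75%. Spi1 itself was at 188 ± 2.76 and 191 ± 0.883 CPM (SD, n = 3) in wild-type and knockout libraries (edgeR adjusted p = 0.850).

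Levels of different genes were compared per length, with the deposited FPKM. Csf1r was highest at 158 ± 4.90 FPKM in wild-type libraries against 151 ± 0.663 FPKM in knockout libraries (SD, n = 3), above 98.6% of tested genes. Csf2rb2 followed at 73.7 ± 3.14 and 74.9 ± 2.69 FPKM, then Csf2ra at 58.3 ± 4.48 and 55.2 ± 2.69 FPKM and Csf2rb at 46.0 ± 8.39 and 47.4 ± 8.77 FPKM. Csf2ra and Csf2rb overlapped over the libraries, and Csf1r, Csf2rb2 and Csf3r each kept apart from their neighbours in the order. Csf3r was at 12.1 ± 0.308 and 11.3 ± 0.0787 FPKM and Csf1 at 3.68 ± 0.432 and 3.25 ± 0.00994 FPKM, above 55.7% of tested genes. Csf3 (0.126 and 0.0201 FPKM) and Il34 (0.0598 and 0.0821 FPKM) overlapped and closed the order above Csf2, which was listed at 0.

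The order among Csf2ra, Csf2rb and Csf2rb2 depended on the length used. For Csf1, Csf3r and the other receptor genes the FPKM corresponded to the length of all annotated exons together, times a factor of 1.11 to 1.12. For Csf2ra those exons sum to 2871 bases, while its longest coding transcript has 1849. For Csf2rb the lengths are 7277 and 4900 bases, and for Csf2rb2 both are 4740. Per kilobase of the longest coding transcript, Csf2ra was at 101 ± 8.03, Csf2rb2 at 82.4 ± 3.16 and Csf2rb at 76.4 ± 13.7 CPM in wild-type libraries (SD, n = 3). Csf2ra thus stood first of the 3 on the mean. In knockout libraries the values on this scale were 95.1 ± 4.58, 83.0 ± 2.93 and 78.1 ± 14.4 CPM. Csf2ra and Csf2rb overlapped, at 92.27 and 92.15 in the wild-type library numbered 3 and at 92.79 and 94.75 in the knockout one. Csf1r stayed highest on both scales, at 217 and 205 CPM per kilobase.

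**Figure D3:**
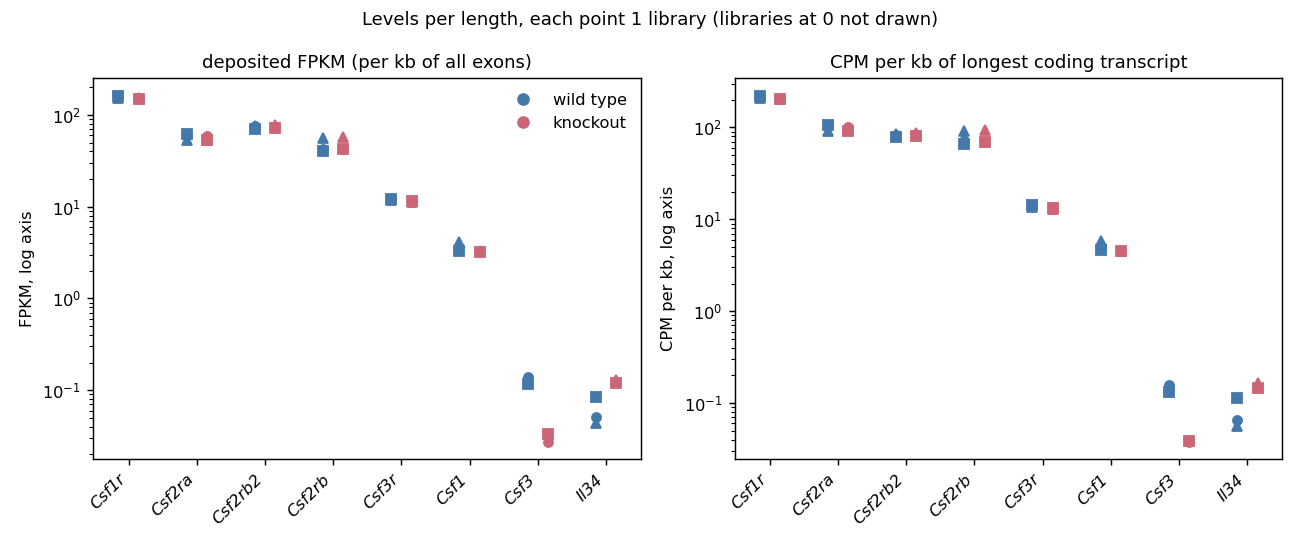
Levels per length on log axes, as deposited FPKM (left) and as CPM per kilobase of the longest coding transcript (right), with 1 point per library, genotype by colour and libraries at 0 not drawn. Csf1r lies highest on both scales and Csf3 and Il34 lowest, while Csf2ra and Csf2rb2 change places.

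Receptor composition was close in the genotypes. Csf1r made up 46.0%, 46.5% and 43.7% of the summed FPKM of the 5 receptor chain genes in wild-type libraries against 44.7%, 45.5% and 43.0% in knockout libraries, which overlapped. Csf1 FPKM equalled 2.33 ± 0.342% of Csf1r FPKM in wild-type libraries against 2.15 ± 0.00997% in knockout libraries (SD, n = 3, exact two-sided permutation p = 0.7). The ratio of Csf2ra to the summed beta chains was 0.512, 0.560 and 0.405 in wild-type libraries against 0.503, 0.463 and 0.398 in knockout libraries. The sum includes Csf2rb2, whose product serves the IL-3 receptor, so the ratio does not describe the GM-CSF receptor alone. The lowest ratio of each genotype was in the library numbered 3. The difference in the log2 ratio was -0.11 (exact two-sided permutation p = 0.5), and it lay between -0.24 and -0.0076 when 1 library was left out.

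**Figure D4:**
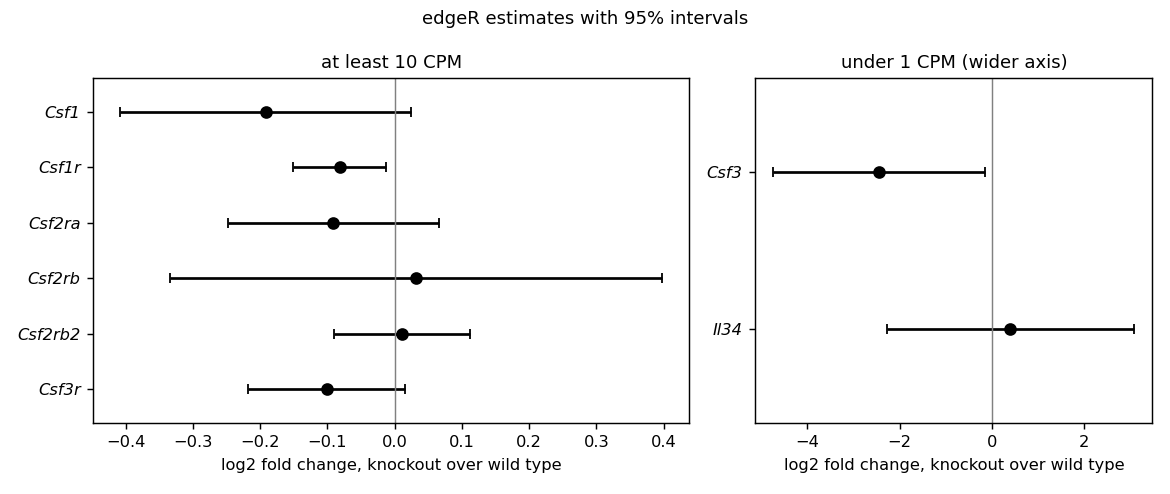
Fitted log2 fold changes of knockout over wild type with 95% intervals (horizontal bars) for the 6 CSF genes above 10 CPM (left) and the 2 under 1 CPM (right, wider axis). Csf1r at -0.082 has a narrow interval, and Csf2rb at 0.032 an interval from -0.33 to 0.40.

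Relatives of the CSF ligands and receptors included the IL-3 and IL-5 alpha chains, the alternative IL-34 receptors and the receptor kinases of the same family. Of 12 listed, 10 were in the table, 8 were tested and none passed over all genes. The median log2 fold change was -0.24 beside -0.0019 over all genes tested, with 6 of 8 below 0. Pdgfra, a receptor for platelet-derived growth factor and a relative of CSF1R, was at 15.3, 14.3 and 15.6 CPM in the 3 wild-type libraries against 9.12, 10.7 and 10.7 CPM in the 3 knockout libraries (log2 fold change -0.57, SE 0.0984, edgeR adjusted p = 0.099). Its groups did not overlap. Sdc1, which encodes the syndecan that can bind IL-34, was at 254 ± 19.3 and 209 ± 23.7 CPM (SD, n = 3, edgeR adjusted p = 0.326), with overlapping groups. Il3ra, the IL-3 alpha chain gene, was at 37.7 ± 3.99 and 36.8 ± 2.26 CPM (edgeR adjusted p = 0.930).

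Markers of fibroblasts and mesothelium, cells that commonly express Pdgfra and can make Csf1, had a lower summed level in the knockout libraries, as both genes did. The 11 markers were all tested, none passed, and 8 had a fitted value below 0. Their summed level was 111 to 116 CPM in the 3 wild-type libraries against 88.1 to 104 CPM in the 3 knockout libraries, with Dcn at 16.3 ± 0.849 and 11.7 ± 0.501 CPM (edgeR adjusted p = 0.102) and Col1a2 at 32.2 and 28.8 CPM. The other 3 had fitted values above 0, among them the mesothelial marker Wt1, which was at 0.900 and 1.37 CPM and higher in every knockout library than in any wild-type library (edgeR adjusted p = 0.417). No marker of this list was at 0 in all libraries, and their part in the values of Csf1 and Pdgfra was not tested.

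Signal transducers of the CSF receptors were all tested (23 of 23) and none passed. Their median log2 fold change was -0.026, with 15 below 0 and 8 above. Jak2, the kinase bound to the beta chain, was at 97.9, 85.9 and 95.1 CPM in the 3 wild-type libraries against 75.4, 75.2 and 76.6 CPM in the 3 knockout libraries (log2 fold change -0.30, SE 0.0581, edgeR adjusted p = 0.127). Every knockout library lay below every wild-type library. Syk and the adaptor gene Tyrobp, the most abundant of the list, were at 859 and 844 CPM and at 630.3 and 589 CPM by genotype, wild type first. Of the transcription factors downstream of JAK2, Stat5b was between 97.5 and 104 CPM over all 6 libraries, with overlapping groups. Stat5a was at 36.4 to 38.3 CPM in wild-type libraries and, without overlap, at 32.3 to 36.0 CPM in knockout ones (edgeR adjusted p = 0.627).

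Negative regulators were tested for 15 of 15 genes and none passed. Their median was -0.079, with 9 below 0. Ptpn6, which encodes the phosphatase SHP-1, was at 313, 276 and 275 CPM in the 3 wild-type libraries against 199, 206 and 221 CPM in the 3 knockout libraries. The groups did not overlap, and its log2 fold change of -0.46 (SE 0.0644) did not pass (edgeR adjusted p = 0.076). Dok3, an adaptor gene, was at 38.6 ± 1.41 and 33.4 ± 1.26 CPM (SD, n = 3, edgeR adjusted p = 0.271), and Cbl, the ubiquitin ligase of CSF1R, at 469 ± 35.0 and 474 ± 7.21 CPM (edgeR adjusted p = 0.964).

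Genes that respond to CSFs or control Csf1r were in the table for 16 of 16, with 15 tested, 0 counts of Ccl17 in every library and none past the threshold. The median was -0.095, with 10 below 0 and 5 above. Ets2, a transcription factor gene, was at 35.6 ± 1.95 and 27.7 ± 1.63 CPM (SD, n = 3, edgeR adjusted p = 0.130), and Cebpa at 192 ± 10.5 and 187 ± 8.07 CPM (edgeR adjusted p = 0.870). The 4 genes for the shedding and processing of CSF proteins had a median of -0.087 and none passed. Adam17, which encodes the protease that sheds membrane-bound M-CSF and CSF1R, was at 448 ± 17.3 and 399 ± 22.0 CPM (edgeR adjusted p = 0.303). Adam10, a related protease gene, was at 230.2, 235 and 237 CPM in the 3 wild-type libraries against 144, 257 and 268 CPM in the 3 knockout libraries, where replicate 1 stood far below the rest.

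**Figure D5:**
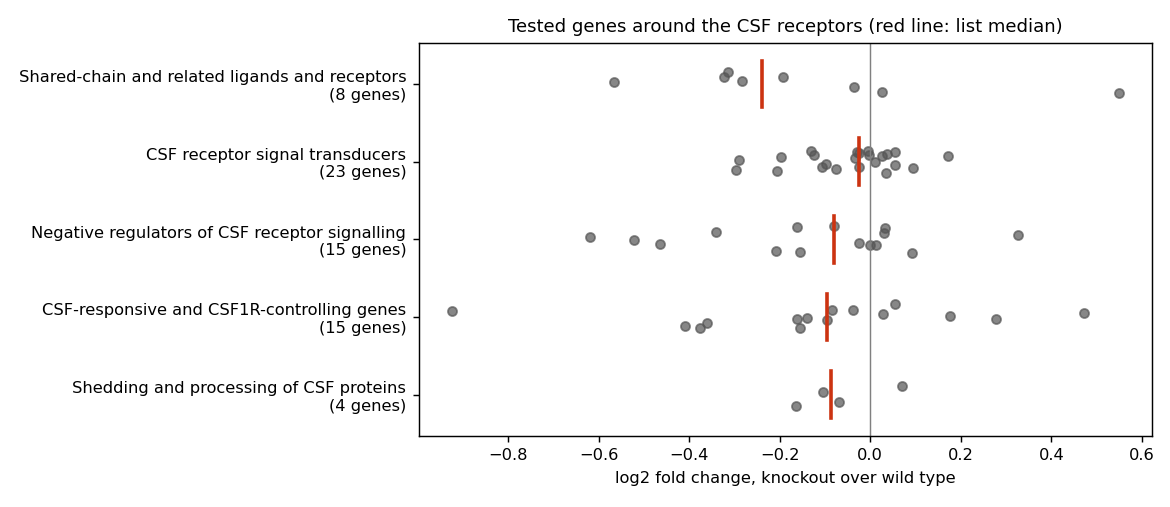
Fitted log2 fold changes (horizontal axis) of the tested genes of 5 lists around the CSF receptors, 1 point per gene with the list median as a red line. The medians lie between -0.24 and -0.026, and no point passed over all genes.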

How the data were processed

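Poly(A) RNA libraries were sequenced paired-end, per the labels' protocols. The submitters' processing notes name HISAT2 2.0, and no counting tool, annotation or build is given in the sources used here. The deposited count columns hold whole-number counts per gene. The deposited FPKM columns were scaled by the authors for length and library size, per the file headers. A further 12 value columns carry names of no sample here and were left out. The title of each library gave its genotype. Genes passing filterByExpr (16239) were scaled by TMM and tested two-sided with edgeR 4.0.16 quasi-likelihood fits (R 4.3.3), with Benjamini-Hochberg adjustment over all genes and calls at 0.05. Levels per length used FPKM as deposited. Alternatives used DESeq2 1.42.0 and limma 3.58.1 on log2(FPKM + 1) or log2(FPKM + 0.1). Sequences came from RefSeq promoters and GENCODE M21 transcripts, aligned with Biopython 1.88. The fits were tested on simulated data.

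The genes described and the lists around them were chosen with earlier results of these data known. Named from each list were up to 4 genes past the threshold or, where none passed, the 2 most abundant and the 2 of smallest unadjusted p. For the CSF gene of smallest unadjusted p, the 3 nearest profiles were named. Cd68, Adgre1, Itgam, Gata6, Timd4, Icam2, Wt1, Stat5a, Stat5b, Ccl17, Ly6g, Retnlg and S100a9 were chosen after their values were seen. Some genes that this rule names are not reported here.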

Additional observations from a re-analysis of the deposited data

How the results depend on the processing

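No CSF gene passed under any alternative run. Csf1, Csf1r, Csf2ra and Csf3r kept a value below 0 in each alternative that gave one. Csf3 also did, but it passed the filter through its wild-type libraries alone, so its sign is no support. Csf3 and Il34 did not reach the required FPKM of 1 in at least 3 libraries, so limma gave them no value, and DESeq2 gave them no adjusted p. The count of 11 genes called over the table became 7 without a filter, 457 with DESeq2 and 3 with the replicate number as a block, and lay between 7 and 35 without 1 library (7, 24 and 35 without wild-type replicate 1, wild-type replicate 2 and knockout replicate 1). Il34 turned to -0.16 with the replicate block and to -0.30 without both libraries numbered 3, a setting chosen after seeing the data, and lay between -0.11 and 0.99 without 1 library. Without 1 library Csf2rb lay between -0.13 and 0.19 and Csf2rb2 between -0.021 and 0.031. The cause was not tested. The replicate number pairs nothing in the labels. Among the libraries of the other genotype, each library correlated best with the one of its own number. These correlations were only 0.0146 to 0.0497, and whether they reflect a pairing was not tested.

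List medians moved by more than the spread between libraries as follows. With limma on log2(FPKM + 1) and log2(FPKM + 0.1), which tested fewer genes, they were -0.013 and -0.014 for transducers, -0.0098 and -0.011 for negative regulators, -0.063 and -0.075 for CSF-responsive genes, -0.020 and -0.021 for macrophage, 0.023 and 0.029 for neutrophil and 0.22 and 0.34 for endothelial markers, with -0.13 for fibroblast and mesothelial markers in the first and -0.90 for T and NK markers in the second. Without a filter, which tested more genes, they were -0.32 for T and NK, -0.12 for eosinophil and -0.38 for endothelial markers. With the replicate block they were -0.070 for CSF-responsive genes and 0.74 for B cell markers. Without 1 library they ranged from -0.27 to -0.087 for relatives, -0.17 to -0.041 for negative regulators, -0.15 to -0.061 for CSF-responsive genes, -0.18 to 0.0076 for shedding genes, 0.33 to 0.94 for neutrophil, -0.42 to -0.18 for fibroblast and mesothelial, -0.76 to -0.58 for T and NK, 0.73 to 1.31 for B cell, -0.42 to -0.11 for dendritic cell, -0.85 to -0.55 for mast cell and 0.15 to 1.49 for eosinophil markers. Depth limits Csf2, Csf3 and Il34, which lay under 1 CPM.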

Other observations

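Markers of the other cell types that the samples could hold were low. In wild-type and knockout libraries the summed levels were 9.70 to 10.8 and 6.55 to 6.95 CPM for 8 T and NK cell markers, 0.794 to 1.23 and 1.24 to 2.56 CPM for 5 B cell markers, and 14.3 to 16.9 and 11.6 to 14.2 CPM for 6 dendritic cell markers. They were 5.23 to 6.24 and 3.17 to 4.36 CPM for 6 mast cell markers, at most 1.20 and 0.970 CPM for the 3 eosinophil markers in the table, and 13.3 to 15.4 and 17.7 to 19.2 CPM for the 3 endothelial markers in the table. The B cell, dendritic, mast cell, T and NK, eosinophil and endothelial lists had medians of 0.96, -0.27, -0.74, -0.67, 0.56 and -0.016 on the log2 scale, the macrophage list -0.045, the neutrophil list 0.51 and the fibroblast and mesothelial list -0.28. Of all marker genes, Lyz2 alone passed over all genes. The T cell receptor gene Cd3g had means of 2.13 and 1.12 CPM, the mast cell protease gene Cma1 means of 1.28 and 0.619 CPM, and the endothelial receptor gene Kdr means of 13.7 and 17.4 CPM. None of the 3 passed. Kdr made up most of the endothelial sum, and the other endothelial markers in the table had lower means in the knockout libraries. Cdh5 was at 0.951 and 0.730 CPM and Tie1, which was not tested, at 0.0535 and 0.0365 CPM, both with overlapping groups.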
